A study of Mus musculus with 2 samples.

Results

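Cells of wildtype and Mgl2DTR_eGFP mouse thymus were tagged with hashtags and read in 1 pool with 3 hashtags. Of 28926 cells, 5074 (17.5%) were called positive for the third hashtag besides a genotype hashtag. These third-hashtag cells are described here against cells called with a genotype hashtag alone. The members were taken from the deposited hashtag classification: 2312 cells held the WT hashtag and the third (called WT third-hashtag cells), against 11586 with the WT hashtag only, and 2762 held the Mgl2DTR hashtag and the third (Mgl2DTR third-hashtag cells), against 7433 with the Mgl2DTR hashtag only. The deposited annotation lists every one of the 5074 as "Doublet", its term for more than 1 hashtag, and gives the same term to 4755 cells called with both genotype hashtags. Those 4755 are shown beside the third-hashtag cells as the class most like them. A further 78 cells were called with no hashtag.

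The mice were 7 weeks old. Mgl2DTR_eGFP mice had received 500 ng of diphtheria toxin, and the labels give 48 hours of toxin. They name no toxin for the wildtype mice in the treatment protocol. Thymus was digested with collagenase, cells bearing CD90.2 were removed with magnets, and the living remainder was sorted after CD11c and CD11b staining. The allele's name stands for a receptor for diphtheria toxin and a green fluorescent protein placed under Mgl2, so that toxin kills cells in which that lectin gene is active. Neither the number of mice nor their strain is given beyond the hashtag name B6WT. All cells came from 1 gene expression library, so no test between classes was possible, and every interval below is a 95% interval that covers counting error only.

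In cell hashing, antibodies to common surface proteins carry a short DNA barcode, and cells of each sample are stained with a different barcode before pooling. A droplet that holds cells of different samples, or barcodes carried over from elsewhere, then reads more than 1 barcode. The hashtag count tables name the third row IL4RaKO, whereas the feature list and the annotation name it uncategorized. IL-4Ra is the chain shared by the receptors for IL-4 and IL-13, the type 2 cytokines. It signals through Janus kinases and Stat6, and in dendritic cells and macrophages it is known to raise genes such as Mgl2, Retnla and Ccl17. The labels describe no mice without Il4ra, so the hashtag is called the third hashtag here.

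The 3 barcodes are shown because the classes rest on telling them apart. Capitals mark the 8 positions at which the third barcode differs from both others.
B6WT: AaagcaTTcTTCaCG
Mgl2DTR: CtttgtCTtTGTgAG
Third-hashtag barcode: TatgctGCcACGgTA
Each barcode is 15 bases long. The third differs from the B6WT barcode at 11 positions and from the Mgl2DTR barcode at 12, and those 2 differ from each other at 12.

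The third hashtag was present in these cells in large amounts. A median of 880 third-hashtag unique molecular identifiers (UMIs, each standing for 1 captured molecule) was counted per cell in the WT third-hashtag class (quartiles 502 and 1268). The median in the Mgl2DTR third-hashtag class was 1007.5 (quartiles 664 and 1446). Each single-hashtag class had a median of 22, and cells with both genotype hashtags had 28. These counts chose the classes and are a description, with no test. The highest count in a cell called negative for the third hashtag was 98, and the lowest in a cell called positive was 99. Between 99 and 198 UMIs lay 152 cells of the WT third-hashtag class and 81 of the Mgl2DTR third-hashtag class. On the other side, 399 WT and 327 Mgl2DTR single-hashtag cells had 49 UMIs or more.

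In no deposited cell called with the third hashtag was it the only hashtag called. The WT hashtag was the strongest by the deposited annotation in all 2312 cells of the first class, and the Mgl2DTR hashtag in all 2762 of the second. The counts were deposited in parts named for the WT and Mgl2DTR hashtags, with none named for the third. Cells led by the third hashtag may therefore not have been deposited. How often it led or stood alone before deposition cannot be read from these counts. The third hashtag made up a median of 32.9% of a cell's hashtag UMIs in the WT third-hashtag class and 41.8% in the Mgl2DTR third-hashtag class. In the single-hashtag classes it made up 1.52% and 1.69%. By plain count, however, it exceeded the genotype hashtag in 1091 of 2762 Mgl2DTR third-hashtag cells (39.5%, exact binomial interval 37.7 to 41.4) and in 0 of 2312 WT third-hashtag cells (upper bound 0.159%). The genotype hashtag was not lower in third-hashtag cells: medians were 1872 UMIs against 1424 in the WT arm, and 1342 against 1234 in the Mgl2DTR arm. The remaining genotype hashtag also reached the count of cells called positive for it in 241 of 2312 cells (10.4%, exact binomial interval 9.21 to 11.7) of the WT third-hashtag class. It did so in 579 of 2762 (21.0%, 19.5 to 22.5) of the Mgl2DTR third-hashtag class, so these cells held all 3 hashtags.

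**Figure D1:**
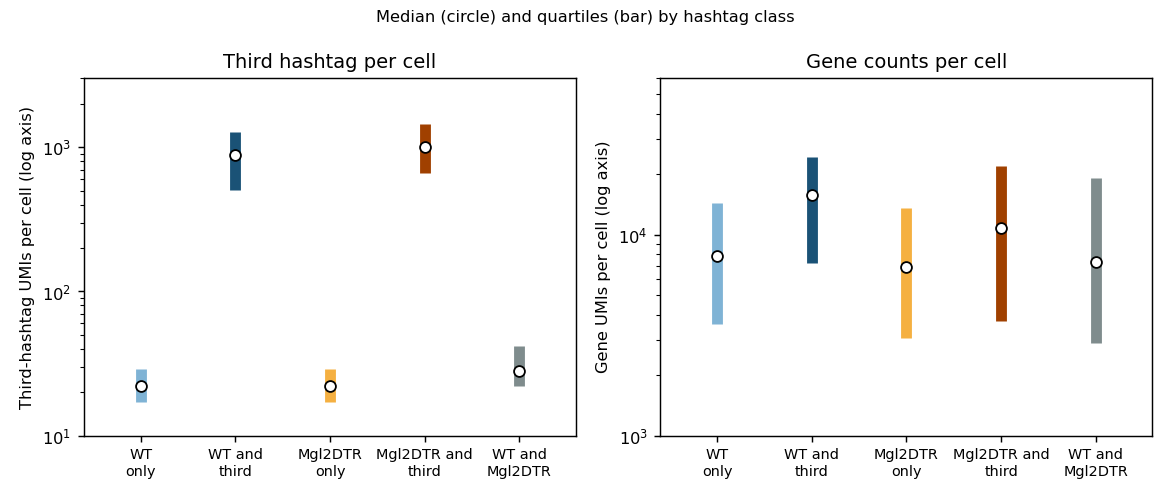
Third-hashtag UMIs per cell (left) and gene UMIs per cell (right), both on log axes, in the 5 hashtag classes; circles are medians and bars span the quartiles. Third-hashtag medians are 880 and 1007.5 against 22, and gene UMI medians 15764 and 10862.5 against 7820 and 6930.

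Third-hashtag cells also held more RNA counts. The median cell had 15764 gene UMIs in the WT third-hashtag class against 7820 in WT cells, a ratio of 2.02. The medians were 10862.5 and 6930 in the Mgl2DTR arm, a ratio of 1.57. Detected genes followed, with medians of 3446.5 against 2295 and 2939 against 2146. Cells with both genotype hashtags, in contrast, had a median of 7299 UMIs and an upper quartile of 19231.5. Gene UMIs were higher in cells with more of the third hashtag. With cells cut by third-hashtag count into 4 sets of about equal size, the median from the lowest set to the highest was 9999, 12061.5, 18095 and 23859 UMIs in the WT third-hashtag class. In the Mgl2DTR third-hashtag class it was 6733.5, 7399, 12097.5 and 21687. Over cells, Spearman's rho between third-hashtag and gene UMIs was 0.39 (2312 cells) and 0.34 (2762 cells). It was 0.42 and 0.36 for the genotype hashtag, and all 3 counts share the cell's overall capture. The median share of mitochondrial UMIs was 2.04% against 1.97% and 2.31% against 1.89%.

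To set the classes by lineage, all cells were clustered by gene expression and clusters were named from marker lists. Of 44 clusters, 30 were named and 14 were not. The T cell-like class took in cortical thymocytes, immature T cells whose genes Rag1 and Dntt led a pair of its clusters, and cell cycle genes led a pair of the cDC1-like clusters. T cell-like cells made up 7.14% of WT third-hashtag cells against 19.4% of WT cells, and 4.53% against 6.70% in the Mgl2DTR arm. Type 1 conventional dendritic cell-like (cDC1-like) cells, the cross-presenting dendritic cells, made up 10.4% of WT third-hashtag cells against 19.9% of WT cells, and 13.4% against 19.4% in the Mgl2DTR arm. B cell-like cells were the larger share with the third hashtag, at 5.54% against 1.96% and 7.10% against 4.40%. NK or ILC-like cells were at 3.29% against 1.78% and 3.40% against 1.36%. Macrophage-like cells were at 8.22% against 5.71% and 6.05% against 4.18%. Neutrophil-like cells were at 3.76% against 3.66% in the WT arm, but at 6.88% against 13.4% in the Mgl2DTR arm. Unnamed clusters held 29.5% of WT third-hashtag cells against 13.5% of WT cells, and 25.3% against 12.8% in the Mgl2DTR arm.

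Depth within lineages did not move evenly. In all 10 named classes with at least 50 third-hashtag cells in each arm, third-hashtag cells were deeper in the WT arm, and in 8 of the 10 they were deeper in the Mgl2DTR arm. The NK or ILC-like class had the widest gap, with a median of 16794 UMIs against 2943.5 (ratio 5.71) and 15433 against 3078 (5.01). Neutrophil-like cells had 14969 against 4303.5 (3.48) and 8787 against 2145 (4.10), and T cell-like cells 8766 against 3182 (2.75) and 7262 against 3569 (2.03). The 2 exceptions were dendritic: in the Mgl2DTR arm cDC1-like cells had 9433 against 14084 (0.67) and cDC2-like cells 3881 against 10009 (0.388).

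**Figure D2:**
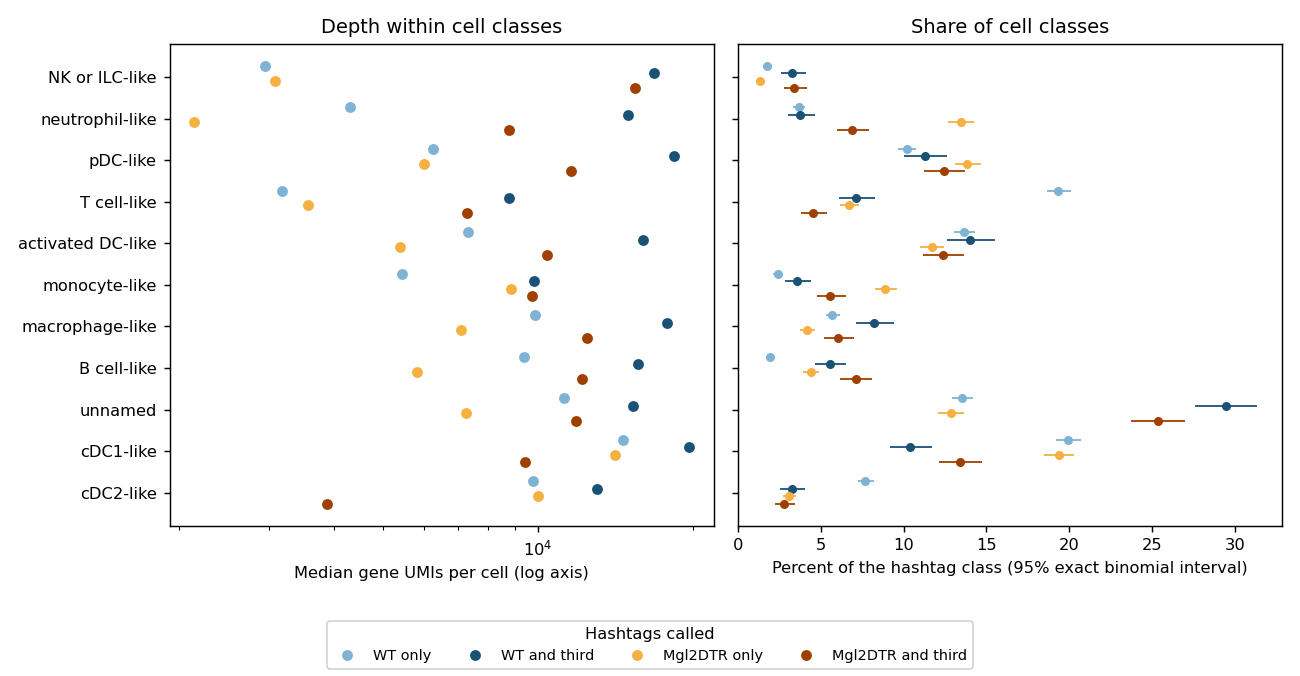
Left, the median gene UMIs per cell (log axis) of each cell class in the 4 hashtag classes compared; right, each cell class as a percentage of the hashtag class, with 95% exact binomial intervals. NK or ILC-like cells with the third hashtag sit at 16794 and 15433 UMIs against 2943.5 and 3078 without it, and unnamed clusters hold 29.5% and 25.3% of third-hashtag cells.

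Within a named class, different clusters held the third-hashtag and the single-hashtag cells. For NK or ILC-like cells, cluster 32 (median 17541 UMIs) held 2.77% of WT third-hashtag cells against 0.26% of WT cells, while cluster 28 (2816 UMIs) held 0.52% against 1.52%. Third-hashtag cells made up 54.7% of cluster 32 in all, the highest share of any cluster. This cluster took its name from its NK or ILC markers but held more RNA of the cDC1 list (1619 CPM, UMIs per 1000000 of the cluster) than of the NK or ILC list (1382 CPM), whereas cluster 28 held 160.2 and 14769. The same split was seen for activated dendritic cell-like cells (cluster 5 against cluster 3, and against cluster 6 in the WT arm), plasmacytoid dendritic cell-like (pDC-like) cells (11 against 2), T cell-like cells (17 against 1), B cell-like cells (20 against 19) and neutrophil-like cells (27 against 9). Of monocyte-like cells, cluster 22 held 59 of the 82 WT third-hashtag cells but 53 of the 280 WT cells, and 84 of 154 against 211 of 662 in the Mgl2DTR arm, with the rest in cluster 10. Values within a class below therefore compare cells that lie in part in different clusters. The shares above did not move together in the arms for monocyte-like cells, at 3.55% against 2.42% in the WT arm and 5.58% against 8.91% in the Mgl2DTR arm.

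Of the 14 unnamed clusters, 7 held marker lists of a pair of lineages: T cell with activated DC (cluster 13), pDC with activated DC (14), pDC with cDC2 (29), T cell with cDC2 (30), T cell with pDC (35), pDC with NK or ILC (41) and T cell with neutrophil (42). All 7 were a larger share of third-hashtag cells than of single-hashtag cells in both arms, as were 22 of the 44 clusters. In the WT arm the interval of the ratio included 1 for cluster 13 (1.22, 0.975 to 1.52). It also did for cluster 42 (3.58, 0.896 to 13.1), which held 5 third-hashtag and 7 single-hashtag cells there. Together the 7 clusters held 17.9% of WT third-hashtag cells (exact binomial interval 16.3 to 19.5) against 7.16% (6.69 to 7.64) of WT cells. In the Mgl2DTR arm the shares were 12.2% (11 to 13.5) against 2.91% (2.54 to 3.31). Cells with both genotype hashtags had 13.9% (12.9 to 14.9) in these clusters. The size of the gap depended on the clustering: the ratios of third-hashtag to single-hashtag shares were 2.497 and 4.20 here, but 1.34 and 1.12 at a clustering resolution of 0.5 in place of 1.

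Markers of a pair of lineages were then counted cell by cell at equal depth. Each cell was thinned at random to 2000 UMIs, cells below that were left out (140 and 320 third-hashtag cells, 1378 WT and 1130 Mgl2DTR cells), and a cell counted when it kept at least 2 UMIs of each list. Over 12 pairs of lists, 53.0% of WT third-hashtag cells held at least 1 pair, against 29.1% of WT cells, a ratio of 1.82 (1.70 to 1.95). The shares were 44.3% and 20.5% in the Mgl2DTR arm, a ratio of 2.17 (2.00 to 2.35). Cells with both genotype hashtags were at 50.04%. Each of the 12 pairs was at a higher share in third-hashtag cells in both arms, with no overlap of the binomial intervals. The pairs were chosen with these values known, so their agreement is a description and no test.

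The pair of T cell and cDC1 lists stood at 10.1% of WT third-hashtag cells against 3.20% of WT cells. It stood at 8.39% against 1.63% in the Mgl2DTR arm and at 9.33% in cells with both genotype hashtags. The pDC and cDC1 pair stood at 14.6% against 4.31%, at 13.7% against 4.01%, and at 14.1% with both genotype hashtags. T cell and macrophage lists stood together in 4.33% of WT third-hashtag cells against 1.16%, in 2.46% against 0.67% in the Mgl2DTR arm, and in 3.11% with both genotype hashtags. The smallest ratio in each arm was that of T cell and activated DC lists, at 15.7% against 10.5% and at 9.09% against 5.16%. Without thinning the T cell and cDC1 pair was found in 35.6% of WT third-hashtag cells against 13.03% of WT cells, and in 27.9% against 7.48% in the Mgl2DTR arm. By cell class, the share of cells with at least 1 pair was furthest apart, by ratio, in neutrophil-like, monocyte-like and pDC-like cells. It was 35.9% against 6.69% and 23.1% against 5.40% in neutrophil-like cells, 55.4% against 16.3% and 39.6% against 9.31% in monocyte-like cells, and 64.8% against 21.4% and 54.4% against 17.05% in pDC-like cells. cDC2-like cells stood at 22.2% against 21.5% and 25.4% against 18.8%, and T cell-like cells, whose own list is part of several pairs, at 68.03% against 52.4% and 69.3% against 61.1%. The 12 pairs were chosen after their values were seen. The neutrophil list was left out of them because, at the same depth, at least 13.9% of the WT cells of every cell class were positive for it. Lists that were kept were also positive outside their own class in WT cells. The cDC1 list was positive in 10.6% (neutrophil-like) to 25.8% (cDC2-like) of the other classes. The activated DC list was positive in 70.2% of macrophage-like and 22.0% of T cell-like cells. The pDC list was positive in 90.6% of B cell-like and 22.3% of T cell-like cells, and the B cell list in 56.3% of pDC-like cells. Pairs with the pDC list and pairs with the B cell list can therefore count the same cells, so the 12 pairs are not separate readings. The T cell list was positive in 0.62% of cDC1-like cells, but in 57.2% of NK or ILC-like cells.

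**Figure D3:**
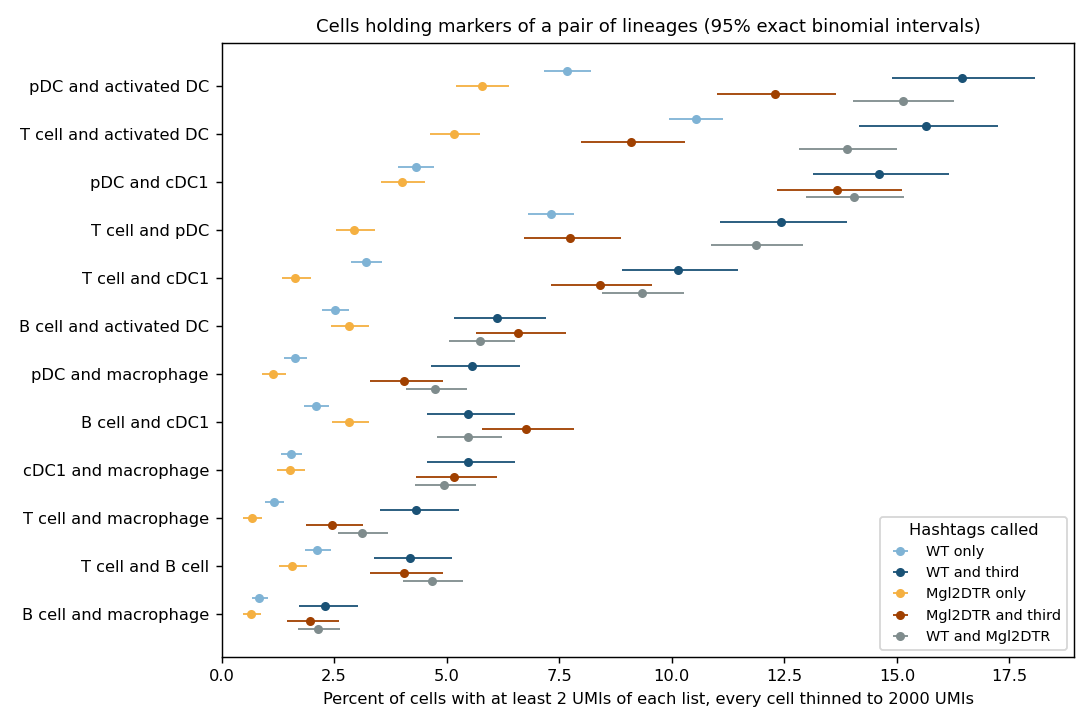
Percentage of cells, each thinned to 2000 UMIs, that hold at least 2 UMIs of both lists of a pair, for 12 pairs and 5 hashtag classes, with 95% exact binomial intervals. The pairs were chosen after their values were seen. In each of them the third-hashtag cells lie to the right of the single-hashtag cells of the same arm. An example is 10.1% against 3.20% for T cell and cDC1 lists in the WT arm.

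Markers of other lineages were also higher inside the named classes. The cDC1 list, led by genes such as Xcr1 and Clec9a, was higher with the third hashtag in 9 of 9 other classes in each arm. The summed level ratios ran from 1.11 to 2.496 in the WT arm (median 1.88) and from 1.78 to 3.24 in the Mgl2DTR arm (median 2.04), with every interval above 1. Levels are given as UMIs of a gene per 1000000 UMIs of the class (CPM). In pDC-like cells the cDC1 list summed to 1415 CPM against 751 in the WT arm and 1447 against 685 in the Mgl2DTR arm. The T cell list was above 1 in 9 of 9 other classes in the WT arm and in 8 of 9 in the Mgl2DTR arm, with intervals above 1 in 6 and 8. In monocyte-like cells it summed to 1099 CPM against 368 in the WT arm and 436 against 58.9 in the Mgl2DTR arm. In cDC1-like cells it summed to 99.8 against 35.6 and 90.5 against 27.7. Other lists were less even, and the neutrophil list had intervals above 1 in 5 and 6 of the 9 other classes and below 1 in 3 and 3. The lists that named each class helped to build it and are not read as results. Third-hashtag cells were deeper in most of these classes, but shallower in the cDC1-like and cDC2-like classes of the Mgl2DTR arm, as given above, and the part of depth in these levels was not tested.

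Il4ra, which lies on chromosome 7 (mm10, 125552120 to 125579474, plus strand; ENSMUSG00000030748.9, protein-coding), was detected in all classes. Its level was 22.2 CPM in WT cells (exact Poisson interval 21.3 to 23.1) and 19.4 CPM (18.01 to 20.8) in WT third-hashtag cells, a ratio of 0.872 (exact interval 0.804 to 0.946). In the Mgl2DTR arm it was 35.3 CPM (34.0 to 36.7) and 25.1 CPM (23.6 to 26.7), a ratio of 0.711 (0.661 to 0.765). Cells with both genotype hashtags were at 29.1 CPM. In both arms the gene was lower with the third hashtag by more than counting error, but by less than the 1.5-fold used here to call a gene (a ratio of at least 1.5 in either direction, its whole interval on that side of 1, and at least 50 UMIs summed). With cell classes weighted to their shares in single-hashtag cells the ratios were 0.723 and 0.702. Of 13082 genes measured in both arms, 12.2% had a lower ratio than Il4ra in the WT arm and 5.58% in the Mgl2DTR arm. Il4ra UMIs were found in 580 of the WT third-hashtag cells and in 671 of the Mgl2DTR third-hashtag cells. The library counts the 3′ end of transcripts, which does not show which exons a transcript holds, so these counts check nothing about a deleted allele.

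The ratio of Il4ra differed between cell classes. In T cell-like cells the level was 37.4 CPM (34.0 to 41.03) in WT and 19.0 (13.5 to 25.9) in WT third-hashtag cells. The values were 45.2 (37.5 to 54.0) and 14.9 (9.56 to 22.2) in the Mgl2DTR arm, the lowest ratio of Il4ra in any class measured there, 0.33. Activated DC-like cells, the mature dendritic cells that migrate and present antigen, had 43.4 CPM (40.1 to 47.0) against 26.1 (22.0 to 30.8), and 56.7 (50.9 to 63.0) against 33.4 (28.5 to 38.8). pDC-like cells had 16.1 (13.7 to 18.7) against 7.12 (5.01 to 9.81), and 18.2 (15.3 to 21.4) against 12.0 (9.13 to 15.5). These 3 classes passed the size rule in the lower direction in both arms. Their clusters that were richer in third-hashtag cells also held more RNA of the cDC1 list. In T cell-like cells it stood at 1823 CPM in cluster 17 against 136 in cluster 1. In pDC-like cells it stood at 1734 in cluster 11 against 165 in cluster 2. In activated DC-like cells it stood at 1442 in cluster 5 against 177 in cluster 3. The part of this mixed content in the Il4ra levels was not tested.

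In the cDC1-like class, the class with the least Il4ra, the direction was the opposite: 5.58 CPM against 4.50 in the WT arm and 7.21 against 6.07 in the Mgl2DTR arm, with intervals that overlapped. cDC2-like cells had 21.9 CPM (14.1 to 32.6) against 13.5 (11.2 to 16.1) in the WT arm, from 24 UMIs in the third-hashtag cells, and 30.1 (18.1 to 47.0) against 28.4 (21.9 to 36.1) in the Mgl2DTR arm. Classes with the highest Il4ra levels without the third hashtag were thus lower with it, apart from monocyte-like cells in the WT arm, at 43.0 (31.2 to 57.7) against 34.8 (26.9 to 44.3). Monocyte-like cells of the Mgl2DTR arm had 75.2 (63.2 to 88.8) against 101 (93.3 to 109). In cells with both genotype hashtags, Il4ra stood at 25.6 CPM in T cell-like, 39.9 in activated DC-like and 10.9 in cDC1-like cells. Every cell was then thinned to 2000 UMIs. Of T cell-like WT third-hashtag cells, 3.40% (1.11 to 7.76) kept an Il4ra UMI, against 8.89% (7.57 to 10.4) of T cell-like WT cells. In the Mgl2DTR arm the shares were 3.96% (1.09 to 9.83) and 9.48% (6.86 to 12.7). Activated DC-like cells were at 5.65% (3.32 to 8.89) against 9.60% (8.09 to 11.3), and 8.33% (5.47 to 12.1) against 13.8% (11.3 to 16.5). pDC-like cells were at 2.83% (1.15 to 5.75) against 3.97% (2.90 to 5.30), and 3.02% against 3.51%. Each of these classes was lower with the third hashtag, but the intervals overlapped in both arms. The cDC1-like class, the lowest without the third hashtag, was at 1.03% of WT and 1.52% of Mgl2DTR cells by the same count. With the third hashtag it was at 0% (upper bound 1.69%) in the WT arm and at 2.40% (1.04 to 4.68) in the Mgl2DTR arm, with overlapping intervals. The higher direction in cDC1-like cells was thus not seen in the WT arm at equal depth. Nor was that of cDC2-like cells seen there, at 1.39% (0.04 to 7.50) with the third hashtag against 2.77% (1.78 to 4.10). Unthinned shares in T cell-like cells were 19.4% against 17.0% and 14.4% against 18.5%, at median depths of 8766 and 3182, and of 7262 and 3569 UMIs.

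**Figure D4:**
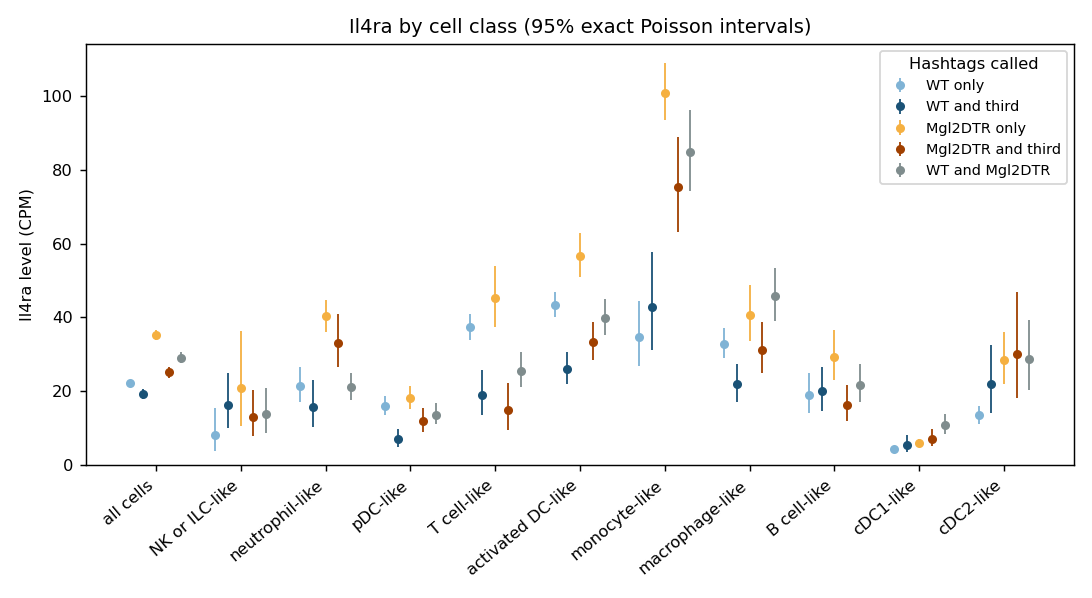
Il4ra level in CPM for all cells and for each named cell class in the 5 hashtag classes, with 95% exact Poisson intervals. T cell-like, activated DC-like and pDC-like cells are lower with the third hashtag in both arms, for example 19.0 against 37.4 CPM in T cell-like WT cells, and cDC1-like cells stay under 11 CPM throughout.

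Over all cells, the rest of the receptor chain did not pass the size rule. Of its 12 genes, 10 had at least 50 UMIs, and 0 of 10 passed the size rule in either arm, where 3.61% of 13721 genes measured in the WT arm and 6.0% of 13207 in the Mgl2DTR arm did. Il13ra1, which pairs with IL-4Ra to bind IL-13, stood at 25.2 CPM against 22.2 and at 25.6 against 24.3. The common gamma chain Il2rg, its other partner, stood at 105.1 against 105.5 and at 90.7 against 81.8. Stat6, the transcription factor of the pathway, stood at 38.2 against 37.0 and at 40.9 against 39.9 CPM and did not pass the size rule in any of the 10 named classes. The receptor chains did so in some classes in both arms. Il13ra1 was higher with the third hashtag in B cell-like (17.9 against 8.38 and 16.4 against 7.69 CPM), T cell-like (14.1 against 7.18 and 24.9 against 5.93) and pDC-like cells (22.3 against 11.3 and 21.3 against 7.0). Il2rg was lower in T cell-like (112 against 183 and 96.3 against 221) and pDC-like cells (66.2 against 107 and 71.5 against 117), and higher in neutrophil-like cells (70.3 against 33.7 and 58.5 against 31.7). Irs2, an adaptor of IL-4Ra, stood at 14.8 against 10.8 CPM in the WT arm (ratio 1.36, 1.23 to 1.503) and at 17.3 against 16.04 in the Mgl2DTR arm. The cytokine Il4 was near 0, at 0.58 against 0.33 and at 1.01 against 0.82 CPM. Il13 and the decoy receptor Il13ra2 had fewer than 50 UMIs.

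Genes of the response to IL-4 and IL-13 went in both directions. Of 28, 3 were higher and 3 lower by the size rule in the WT arm, where 1.63% and 1.98% of all genes were, and 3 were higher and 4 lower in the Mgl2DTR arm, against 1.79% and 4.22%. The median log2 ratio of the list was -0.03 in the WT arm (all genes -0.01) and 0.15 in the Mgl2DTR arm (all genes 0.01). Chil3, a chitinase-like protein of neutrophils and alternatively activated macrophages, was the only member called the same way in both arms, lower, at 36.4 against 84.6 CPM and 114 against 254. In the WT arm Ear2 (28.4 against 44.2 CPM) and the lectin Cd209e (17.1 against 27.6) were lower too, and Fcer2a, the low-affinity IgE receptor of B cells, was higher (4.14 against 2.63).

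In the Mgl2DTR arm the members higher with the third hashtag were Mgl2, Retnla and Cd209a. Mgl2, the lectin under whose control the toxin receptor stands, was at 17.9 CPM (17.0 to 18.9) in Mgl2DTR cells and at 38.5 (36.6 to 40.4) in Mgl2DTR third-hashtag cells, a ratio of 2.15 (1.99 to 2.31). WT cells had 109 CPM (107 to 111) and WT third-hashtag cells 97.0 (94.0 to 100.2). Retnla, a secreted protein of alternatively activated myeloid cells, was at 4.59 CPM (4.10 to 5.11) in Mgl2DTR cells and at 50.9 (48.7 to 53.2) in Mgl2DTR third-hashtag cells, a ratio of 11.1 (9.88 to 12.5), with 18.6% of the UMIs of the latter from 1 cell. WT cells had 42.8 and WT third-hashtag cells 47.1 CPM, so summed over all cells the third-hashtag classes lay close together. Cd209a, a lectin of type 2 dendritic cells, was at 54.5 against 30.3 CPM in the Mgl2DTR arm and at 80.4 against 87.1 in the WT arm. The chemokines Ccl17 and Ccl22 did not pass the size rule in either arm, at 80.7 against 102 and 228 against 274 CPM in the WT arm, and at 54.6 against 43.1 and 208 against 186 in the Mgl2DTR arm.

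By cell class, the widest gaps for both genes in the Mgl2DTR arm were in monocyte-like cells, whose third-hashtag and single-hashtag cells lay in part in different clusters (22 and 10). There Retnla stood at 555 CPM (522 to 590, 1026 UMIs) against 4.83 (3.30 to 6.82, 32 UMIs) without the third hashtag. WT monocyte-like cells had 1854, and those with the third hashtag 1281 (1213 to 1352). Within this class the third-hashtag cells of the arms thus lay apart. Mgl2 stood at 192 CPM (173 to 213) against 15.8 (12.96 to 19.2) in the same cells and at 556 (511 to 603) against 292 (268 to 317) in the WT arm. In activated DC-like cells of the Mgl2DTR arm Mgl2 was at 34.4 against 5.41 CPM, and in cDC2-like cells, the class with its highest level, at 257 against 249. NK or ILC-like cells there were lower, at 15.8 against 46.7. In the WT arm Mgl2 passed the size rule in the lower direction in cDC2-like (467 against 743) and macrophage-like cells (55.0 against 128). It passed in the higher direction there in NK or ILC-like, T cell-like, activated DC-like, cDC1-like, monocyte-like, neutrophil-like and pDC-like cells. Cells with both genotype hashtags had 413 CPM of Retnla and 77.9 of Mgl2 in the monocyte-like class.

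The chemokines differed within classes where they had not over all cells. In activated DC-like cells, the named class with most of their RNA, Ccl22 stood at 756 CPM against 1341 in the WT arm and 792 against 1390 in the Mgl2DTR arm. Ccl17 stood there at 246 against 377 and 179 against 279. In monocyte-like cells Ccl22 was higher with the third hashtag, at 238 against 28.5 and 92.5 against 28.1 CPM, and at 232 with both genotype hashtags. Klf4, a factor of myeloid differentiation that IL-4 is known to raise, stood at 58.3 against 18.5 and 59.7 against 27.04 CPM in T cell-like cells and at 84.5 against 36.9 and 92.1 against 58.9 in pDC-like cells. All these values passed the size rule. The split between clusters given above touches the activated DC-like, T cell-like, pDC-like and monocyte-like cells here, and its part in these values was not tested.

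Members in the opposite direction in the Mgl2DTR arm were Arg1, Ccl24, Tgm2 and Chil3. Arg1, the arginase of alternatively activated and inflammatory myeloid cells, stood at 39.2 CPM (37.8 to 40.7) in Mgl2DTR cells and at 12.4 (11.3 to 13.5) with the third hashtag. In the WT arm it stood at 1.87 CPM against 0.86, from 8 third-hashtag cells. The chemokine Ccl24 stood at 23.5 against 62.0 CPM in the Mgl2DTR arm and at 10.75 against 10.96 in the WT arm. The transglutaminase Tgm2 stood at 14.2 against 21.6 and at 6.94 against 4.36.

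Marker lists showed which lineages' RNA was higher or lower in third-hashtag cells as a whole. In such sums, fewer cells of a type and less RNA per cell cannot be told apart. The neutrophil list was lower: 7 of 10 genes in the WT arm and 10 of 10 in the Mgl2DTR arm passed the size rule, and it summed to 4422 CPM against 9709 and 9443 against 29049. S100a8, a calcium-binding protein abundant in neutrophils, stood at 1929 against 4057 and 3952 against 12998. Ly6g was the lowest of the list in the WT arm (3.002 against 9.43) and Csf3r, the G-CSF receptor, the highest (12.7 against 11.6). Globin genes of red cells were the lowest of all lists. All 4 measured erythroid genes were lower in both arms, and the list summed to 1.39 CPM against 54.6 and 10.3 against 161. Of Hbb-bs UMIs in single-hashtag cells, 63.1% in the WT arm and 52.4% in the Mgl2DTR arm came from 1 cell.

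The B cell list was higher in the WT arm, where 6 of 8 genes passed the size rule and the list summed to 449 CPM against 353. Ebf1, a factor that sets B cell identity, had the highest ratio (9.54 against 4.38 CPM) and the immunoglobulin chain Ighm the lowest (320 against 272). Of the 8, 0 passed in the Mgl2DTR arm, where the list summed to 624 against 499. T cell genes had 0 of 10 past the rule in either arm, but lay on different sides, with a median log2 ratio of -0.40 in the WT arm (833 against 1109 CPM) and 0.24 in the Mgl2DTR arm (498 against 420). Of the cortical thymocyte list, 4 of 8 were lower in the WT arm. The recombinase gene Rag1 stood at 8.83 against 22.8 CPM there and at 4.18 against 2.33 in the Mgl2DTR arm. Monocyte genes differed likewise: F13a1, Fn1 and Vcan were higher in the WT arm and Chil3 lower, while Ly6c2, Fn1, Vcan and Chil3 were lower in the Mgl2DTR arm.

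The macrophage list summed to 1182 CPM against 1036 and 872 against 652, and of its 9 genes the scavenger protein gene Cd5l alone passed the rule, higher in the WT arm (2.32 against 0.75 CPM) and lower in the Mgl2DTR arm (0.82 against 1.496). The cDC2 list summed to 787 against 821 and 566 against 489. Of its 10 genes 2 were higher in the Mgl2DTR arm, Mgl2 and Cd209a, and Itgam, the CD11b chain, was lower (31.4 against 64.1). Of 9 NK or ILC genes, Gzma and Eomes were lower in the WT arm (37.6 against 69.8 and 1.79 against 3.03 CPM) and Klrb1c higher in the Mgl2DTR arm (10.4 against 6.93). Rarer lists rested on few cells: basophil or mast cell genes had 2 of 3 higher in the WT arm, Mcpt8 from 5 cells and Cpa3 from 12, and 0 of 2 in the Mgl2DTR arm. Eosinophil genes had 1 of 2 higher in the Mgl2DTR arm (Prg2), and epithelial genes had Krt8 higher and Prss16 lower there, each with 0 past the rule in the WT arm. Stromal genes had 1 of 4 lower in the WT arm (Col1a1) and 3 of 5 in the Mgl2DTR arm (Col1a1, Col3a1 and Pdgfra). The cDC1, pDC and activated DC lists had 0 genes past the size rule in both arms, with summed ratios from 0.881 to 1.14. Genes of antigen presentation by MHC class II likewise had 0 of 10 past the rule, but summed to 37235 CPM against 34919 in the WT arm and 33203 against 25347 in the Mgl2DTR arm. H2-Aa stood at 6726 against 6285 and 5972 against 4546. Of the immediate early genes, which respond to cell handling, 1 of 12 passed in the WT arm, Fosb at 119 against 78.0 CPM, and 0 in the Mgl2DTR arm (159 against 119). Their summed ratios were 1.31 and 1.21. Mitochondrial genes (ratios 1.05 and 1.10) and cycling genes (0.922 and 0.864) had 0 past the rule. Xist was under 0.40 CPM in every class and the Y-linked gene Ddx3y stood at 46.8 against 46.3 and 57.2 against 59.3 CPM. Of the sex-linked list, 0 of 4 measured genes passed the rule in either arm.

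Across all genes, 224 of 13721 (1.63%) were higher and 272 (1.98%) lower with the third hashtag in the WT arm, and 236 of 13207 (1.79%) higher and 557 (4.22%) lower in the Mgl2DTR arm. With each cell thinned to 2000 UMIs the Mgl2DTR arm had 314 higher and 284 lower genes, and the WT arm 184 and 266. In the same direction in both arms were 53 higher genes (23.7% of the WT arm's calls and 22.5% of the Mgl2DTR arm's) and 83 lower genes (30.5% and 14.9%). In opposite directions were 32 genes higher in the WT arm and lower in the Mgl2DTR arm, and 12 the other way. Single cells carried many of the extremes. In 7 of the 10 highest genes of the WT arm and 9 of 10 of the Mgl2DTR arm, 1 cell gave more than 50% of the third-hashtag UMIs. Iapp and Oxt, hormone genes of endocrine and nerve cells, were each read in 1 Mgl2DTR third-hashtag cell, and Ighg3 (52.5 against 1.80 CPM) had 95.1% of its UMIs from 1. Ighg2b stood at 102 against 14.2 CPM in the WT arm and 52.5 against 15.9 in the Mgl2DTR arm, with 83.6% and 69.9% from 1 cell. The lowest genes of the WT arm besides globins included the immunoglobulin genes Igkv1-135 (0.03 against 1.21 CPM) and Ighg1 (0.35 against 8.27), and also Bpifa1, Eln and Tmsb15a, all with most single-hashtag UMIs from 1 cell.

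Among the 10 genes ranked highest in both arms were several read from 29 or more third-hashtag cells in each arm, some of them known from resident tissue macrophages. Lyve1, a hyaluronan receptor, stood at 9.11 against 2.35 CPM and 5.15 against 1.79, from 62 and 49 cells. Folr2, a folate receptor, stood at 11.0002 against 4.001 and 8.41 against 2.71, and the ficolin gene Fcna at 7.998 against 3.11 and 5.84 against 2.14. Fcrls stood at 5.73 against 2.30 and 4.95 against 0.95. The lectins Cd209f (5.93 against 1.42 and 7.25 against 0.38 CPM) and Cd209g (3.10 against 0.63 and 3.49 against 0.24) ranked highest of all by the smaller of their ratios. Of their third-hashtag UMIs, 1 cell gave 17.0% and 10.6% in the WT arm, and 37.5% and 26.2% in the Mgl2DTR arm. Cells with both genotype hashtags were at 1.86 and 0.93 CPM of these lectins and at 3.02 of Lyve1, nearer to the single-hashtag cells. Il10, an anti-inflammatory cytokine, was among the 10 as well, at 0.86 against 0.23 and 2.08 against 0.82 CPM. It was read from 15 and 27 third-hashtag cells, with 26.5% and 23.8% of those UMIs from 1 cell. Among the 10 lowest in both arms, besides globins, were Mgp (0.43 against 3.37 and 0.64 against 12.9 CPM), for which 1 cell gave 70.9% of the UMIs of Mgl2DTR cells, Bgn (0.13 against 0.88 and 0.25 against 1.41), Igkv15-103, Olfm4, Gas1 and Nfib. The chemokine Ccl7 ranked among the 10 highest of the WT arm, at 30.9 against 5.63 CPM from 131 cells, and it stood at 41.8 against 50.8 in the Mgl2DTR arm.

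Fewer genes differed between the genotypes in third-hashtag cells, which also held fewer UMIs in all. Between Mgl2DTR and WT single-hashtag cells, 941 of 14097 genes (6.68%) were higher and 742 (5.26%) lower by the size rule. Between the third-hashtag classes 327 of 12612 (2.59%) were higher and 276 (2.19%) lower, or 4.78% in all against 11.9%. Of the 941, 693 had enough UMIs in third-hashtag cells, 246 were called the same way there and 14 the opposite way, and the median log2 ratio was 1.00 in single-hashtag and 0.45 in third-hashtag cells. Of the 742, 506 could be measured, 182 were called the same way and 12 the opposite way, with medians of -0.84 and -0.46. These genes were chosen by their ratio in single-hashtag cells, which by itself favours larger ratios there.

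In 26 of the 28 genes of the IL-4 and IL-13 response list (92.9%) the Mgl2DTR to WT ratio lay nearer to 1 in third-hashtag cells, with 16 called in single-hashtag and 9 in third-hashtag cells, and the median absolute log2 ratio was 0.67 and 0.42. Of all 12598 genes measured in both comparisons, 61.5% lay nearer to 1, with medians of 0.13 and 0.10, and of the genes called between the single-hashtag classes, 646 of 693 higher and 448 of 506 lower in Mgl2DTR cells did. Nothing particular to the list is read from its count. Mgl2 itself had a ratio of 0.164 in single-hashtag and 0.397 in third-hashtag cells, Retnla 0.107 and 1.08, Arg1 45.8 and 6.64, and Ccl24 5.66 and 2.18. Chil3 was one of the exceptions, at 3.002 and 3.14. Class II genes were nearer to 1 in 10 of 10, T cell genes in 10 of 10 and neutrophil genes in 7 of 10.

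**Figure D5:**
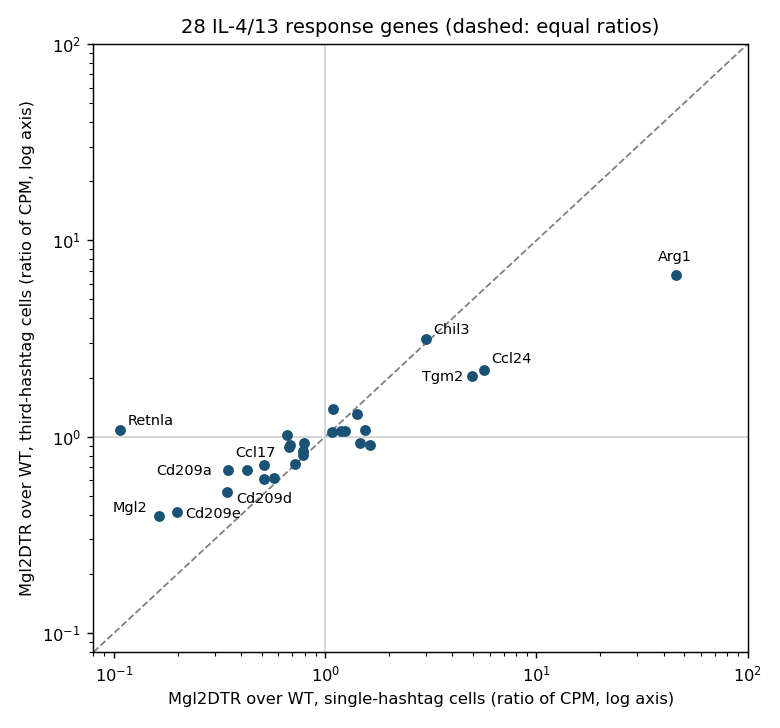
Ratio of CPM in Mgl2DTR over WT for the 28 genes of the IL-4 and IL-13 response list, in single-hashtag cells (horizontal) and third-hashtag cells (vertical), both on log axes; the dashed line marks equal ratios and the grey lines a ratio of 1. Genes with more than a 2-fold difference in single-hashtag cells are named, and 26 of the 28 lie nearer to 1 on the vertical axis, Retnla at 1.08 against 0.107.

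Results were recomputed without the cells that held all 3 hashtags, an alternative chosen after seeing the data. Mgl2 in the Mgl2DTR arm then had a ratio of 2.10 (1.94 to 2.27) and Retnla 12.9 (11.4 to 14.5). Il4ra had 0.836 (0.766 to 0.911) in the WT arm and 0.725 (0.669 to 0.786) in the Mgl2DTR arm.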

How the data were processed

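Thymus cells of both genotypes were read as 1 gene expression library and 1 hashtag library, deposited as 2 samples. The counts are UMI counts per gene or hashtag and cell, not normalized, and were deposited by the authors with a cell annotation that holds the hashtag class and a margin score. The margin score was deposited per cell with no scale stated in the sources used here, and no result rests on it. Per the submitters' processing notes, Cell Ranger 6.0.0, Seurat 4.0.4 and the mm10 build were used. The 28926 annotated cells and 20451 genes were kept as deposited. In all 28926 cells the summed gene count equalled the annotation's total.

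UMIs were summed per hashtag class (116719748 in WT, 39635603 in WT third-hashtag, 71521759 in Mgl2DTR and 40414280 in Mgl2DTR third-hashtag cells) and divided by the class total. With 1 library a class is 1 sample, so no test was run. Exact Poisson, exact conditional (ratios) and Clopper-Pearson (shares) intervals at 95% cover counting error only. A gene was called at a ratio of at least 1.5 with its interval on that side of 1 and at least 50 summed UMIs, and a count of 0 was set to 3 before a ratio. Cells were clustered with leidenalg 0.10.2 at resolution 1, from 2000 variable genes, 30 principal components and 20 neighbours. A cluster took a name only from its marker list. Doublets were not removed or called, because cells with several hashtags are the subject. Both the hashtag classes and the gene lists were chosen with earlier results of these data known. Genes named are list members, the 10 highest and 10 lowest ratios of each arm, and the 10 highest and lowest called in both arms. The size rule and the thinning were tested on simulated counts that held counting error only, without genes whose UMIs come mostly from 1 cell. The clustering, naming and pair counts were not tested in that way. Python 3.11.15, numpy 2.4.6 and scipy 1.17.1 were used. Alternatives covered scaling, thinning, cell make-up, hashtag share, mitochondrial share, count minimum, fold and clustering.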

Additional observations from a re-analysis of the deposited data

Results flagged for a closer look

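For 6 members of the gene lists, among 32 and 12 genes called in opposite directions over all genes, the third-hashtag cells lay on opposite sides of the single-hashtag cells in the arms, past the size rule in each. The difference between the arms was not tested. Arg1 had a ratio of 2.18 in the WT arm, where only 8 third-hashtag cells held a UMI, and 0.316 in the Mgl2DTR arm. The transglutaminase Tgm2 had 1.59 and 0.656. The scavenger protein gene Cd5l had 3.08 and 0.546, from 26 and 15 third-hashtag cells. The monocyte list genes Fn1 and Vcan had 1.59 and 0.522, and 1.93 and 0.421. Rag1, a gene of cortical thymocytes, went the other way, with 0.388 in the WT arm and 1.79 in the Mgl2DTR arm.

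The third hashtag was also counted outside the classes compared. Of the 4755 cells called with both genotype hashtags, 700 (14.7%, exact binomial interval 13.7 to 15.8) held at least 99 third-hashtag UMIs, the lowest count in any cell called positive for it, although the annotation does not name the third hashtag for them. The share at that count is 0 in the single-hashtag classes by how they were called.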

How the results depend on the processing

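Of the recomputed values, 285 kept their direction within counting error, or within 1.5 times for counts of genes, 62 moved further and 1 reversed. The reversal was the cDC2-like share in the WT arm, with a ratio of 1.19 at clustering resolution 0.5 against 0.421. Pair clusters then had ratios of 1.34 (WT) and 1.12 (Mgl2DTR). For Il4ra in the WT arm the ratio was 0.793 after thinning to 2000 UMIs, 0.725 with every cell scaled to the same total and 0.723 weighted to single-hashtag make-up, and in the Mgl2DTR arm 0.639 in cells with a third-hashtag share at or above the median. Weighting called 3 IL-4 and IL-13 genes in the WT arm and 11 in the Mgl2DTR arm. Receptor chain genes had 1 call at a minimum of 1 UMI (WT) and 1 at the higher third-hashtag share (Mgl2DTR). Lineage markers called in the WT arm numbered 48 with equal totals.

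Genes higher in the WT arm numbered 456 with equal totals, 100 at a minimum of 200 UMIs, 349 at 1 UMI and 86 at a fold of 2. Genes lower there numbered 968, 112 and 143 at equal totals, 200 UMIs and a fold of 2, and 1004 when weighted. In the Mgl2DTR arm the higher genes numbered 645, 100, 412 and 86 at the same settings as in the WT arm. Those lower numbered 932, 323 and 259, then 845 weighted and 284 thinned. Equal totals and weighting were read by fold alone, with no interval.

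The ratio of cells with markers of a pair of lineages was 1.44 and 1.76 (WT, Mgl2DTR) at 5000 UMIs, 1.28 and 1.38 without thinning and 2.23 and 2.95 at 3 UMIs of each list. In the Mgl2DTR arm it was 1.98 at the higher third-hashtag share and 1.98 without cells holding all 3 hashtags, where pair clusters had a ratio of 3.52. Gene UMIs had ratios of 1.76 (WT) and 1.32 (Mgl2DTR) when weighted and 1.90 (Mgl2DTR) in cells under 5% mitochondrial UMIs. Genes per cell had 1.55 (WT) at the higher third-hashtag share, and 1.49 and 1.32 (Mgl2DTR) under 5% mitochondrial UMIs and when weighted. Leaving out cells with all 3 hashtags, or pair clusters, was chosen after seeing the data. Without pair clusters Il4ra had ratios of 0.858 and 0.688. The cause of these shifts was not tested. No paired analysis was possible because each class is 1 part of 1 library.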
